A study of Arabidopsis thaliana with 4 samples.

Results

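INP1 (INAPERTURATE POLLEN1, locus AT4G22600) was measured by 1 probe set in young floral buds of the Arabidopsis thaliana cdm1 mutant and of wild type. It read lower in both mutant arrays than in both wild type arrays, at 48.4% of the wild type level when the log2 group means are turned into a ratio. The probe set was found through GEO's platform annotation, whose gene record for it is that of AT4G22600. It is 1 of 22746 probe sets in the value table and 1 of 13286 loci that at least 1 probe set names alone. The gene was selected on the values described here, with its lower level in the mutant known, so its own levels, difference and ranks are given as a description, with no test.

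Apertures are the furrows of the pollen surface where the outer wall, the exine, is thin or missing, and through which the pollen tube can emerge. Their places are set while the products of male meiosis are still held together as a tetrad inside a callose wall, when patches of each microspore's plasma membrane are kept free of exine precursors. The INP1 protein gathers at those patches, and Arabidopsis pollen without INP1 forms no apertures. CDM1 (CALLOSE DEFECTIVE MICROSPORE1) encodes a CCCH zinc finger protein needed for the normal making and removal of that callose.

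The series holds 2 cdm1 arrays and 2 wild type arrays, all from the Col-0 background and from unopened buds of plants at day 24 after germination, with 500 ng of total RNA labelled per Affymetrix array. The labels call the arrays of a genotype biological replicates. They do not say which cdm1 allele was used or how many plants went into an array, and the growth protocol's mention of drought for some plants is tied to no array. All values are log2 expression values from RMA, a method that corrects, quantile-normalises and summarises the probes of a set over several arrays at once. They ran from 2.64 to 14.0 with array medians between 7.21 and 7.24. CDM1 itself has no named probe set and was not analysed here, so the labels have no check from the mutated gene. AMS is a transcription factor of the tapetum (the nurse tissue around the meiotic cells). On the log2 scale it read 11.09 in both wild type arrays and 11.29 and 11.26 in the cdm1 arrays, 0.18 higher in cdm1. It did not pass the test described below (limma adjusted p = 0.395). The 12 measured genes of the tapetum list had a larger median difference, 0.47, so AMS does not stand for the list.

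The log2 expression of INP1 was 6.84 in wild type replicate 1 and 6.82 in wild type replicate 2. It was 5.93 in cdm1 replicate 1 and 5.64 in cdm1 replicate 2. Both wild type arrays were high and close together, both cdm1 arrays were low, and the groups did not overlap. Lower values in both cdm1 arrays than in both wild type arrays were found for 23.6% of all probe sets, so the absence of overlap by itself sets INP1 little apart. The group levels were 6.83 ± 0.0083 in wild type and 5.78 ± 0.21 in cdm1 (SD, n = 2 arrays each), a difference of -1.05 on the log2 scale, or 2.07-fold lower. In whole buds, fewer cells that express INP1 and less INP1 RNA per cell cannot be told apart.

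The spread of INP1 lay almost wholly within the mutant. The cdm1 arrays differed from each other by 0.29 on the log2 scale and the wild type arrays by 0.012. The distance from the higher cdm1 array to the lower wild type array was 0.89. The difference with cdm1 replicate 2 left out, -0.90, rests on the same cdm1 array and is no separate result. With cdm1 replicate 1 left out the difference was -1.19, and with either wild type array left out it was -1.04 or -1.05. Thus the choice of cdm1 array moved the size of the difference more than the choice of wild type array.

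Among all 22746 probe sets, INP1 had the 121st lowest difference between cdm1 and wild type, which places it in the lowest 0.532%. By the size of the difference in either direction it was 207th, since 86 probe sets were higher in cdm1 by as much or more. Among the 13286 named loci it was 81st from the lowest. Of the 120 probe sets with a lower difference, 80 name a single gene, and the lowest of all stood at -3.15 on the log2 scale. The rank by size moved to 469 without cdm1 replicate 2 and to 145 without cdm1 replicate 1.

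The probe sets next to INP1 in this order had about the same difference and differed in how far their replicates lay apart. Just before it came AT2G17170, which read 6.60 and 6.73 in wild type and 5.61 in both cdm1 arrays, a difference of -1.05. Before that came AT3G24330, at 8.05 and 7.69 in wild type and 6.73 and 6.90 in cdm1, and a probe set with no single gene name, at 5.37 and 4.88 in wild type and 4.02 and 4.12 in cdm1. Just after INP1 came AT2G21680, at 5.74 and 6.18 in wild type and 5.05 and 4.79 in cdm1. AT1G56220, the next, read 12.55 and 12.33 in wild type but 10.78 and 12.01 in cdm1, so most of its difference of -1.04 came from 1 mutant array. A further probe set with no single gene name closed the group, at 8.26 and 8.28 in wild type against 7.23 and 7.26 in cdm1.

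**Figure D1:**
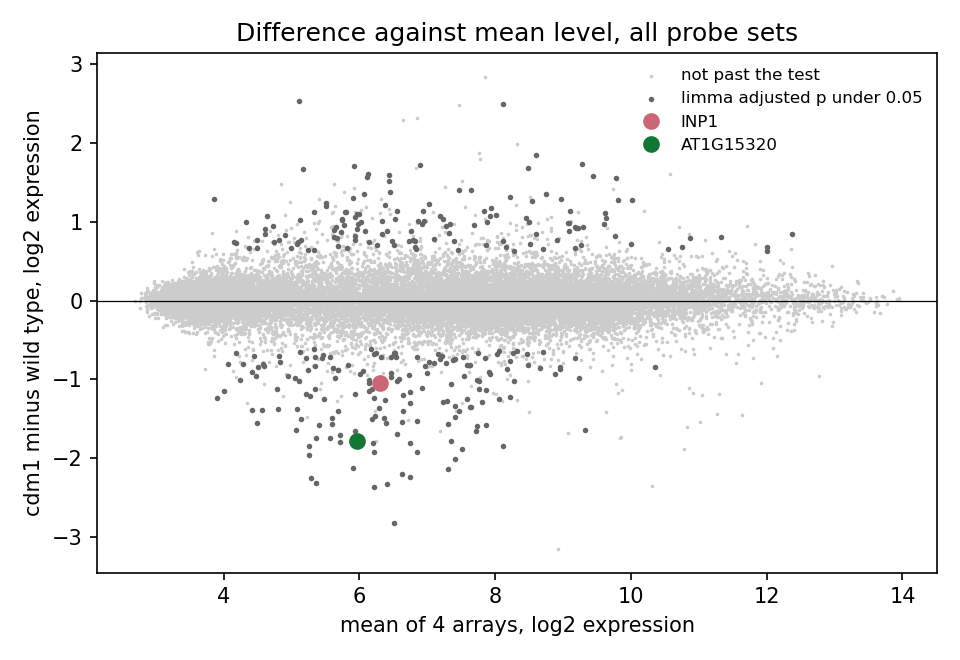
Each point is a probe set, with its mean log2 expression over the 4 arrays on the horizontal axis and the difference cdm1 minus wild type (log2) on the vertical axis; dark points passed the limma test over all probe sets. INP1 lies at a mean of 6.31 and a difference of -1.05, and AT1G15320 at a difference of -1.78.

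INP1 was also set against the 904 other probe sets whose mean over the 4 arrays lay within 0.25 of its own mean of 6.31 on the log2 scale. Of these, 19 (2.1%) had a difference as low as that of INP1 or lower, and 14 were higher in cdm1 by as much or more. Over all probe sets the share as low or lower was 0.528%. The median difference in this band of level was -0.0073, and its 1st and 99th percentiles were -1.49 and 1.16, so INP1 lay between them. Differences as large and positive made up 1.55% of the band and 0.378% of all probe sets, so large differences of either sign were more frequent at this level. The limma test (adjusted p of 0.05 over all probe sets) called 45 of the 904, or 4.98%, against 1.33% of all probe sets.

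The wild type replicates of INP1 agreed more closely than those of most probe sets of like level. The median difference between wild type replicates in the band was 0.13 on the log2 scale, and 94.0% of the 904 differed by more than INP1 did. In cdm1 the median replicate difference was 0.17, and 26.8% differed by more than INP1. The differences of all 19 probe sets that were as low or lower ran from -2.83 to -1.05, and 14 of the 19 name a single gene.

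**Figure D2:**
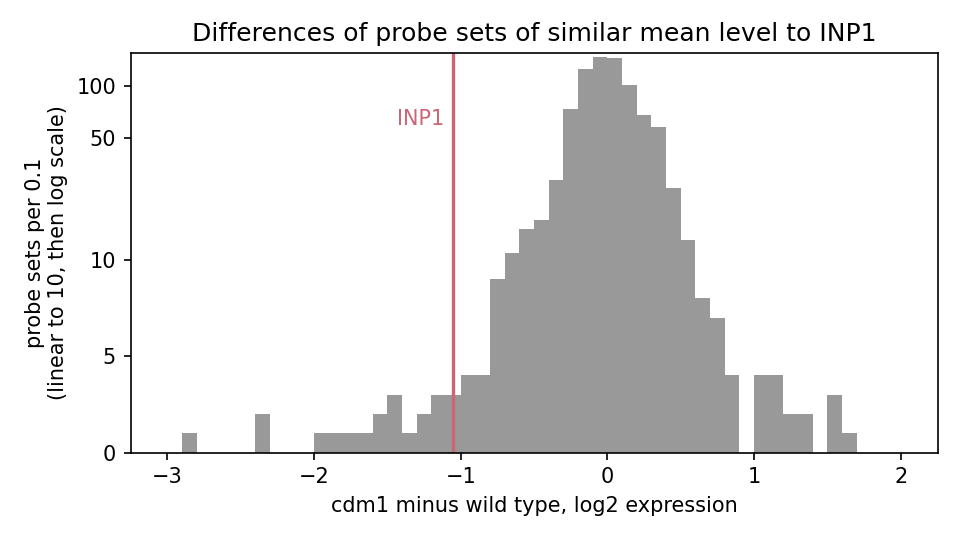
Histogram of the difference cdm1 minus wild type (log2 expression) for the 904 probe sets of similar mean level, in bins of 0.1, with a count axis that is linear up to 10 and logarithmic above. The red line marks INP1 at -1.05, with 19 probe sets at or below it.

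A second locus of the aperture list, AT1G15320, was lower in cdm1 by more than INP1. The list holds INP1, the D6PK family of membrane-associated protein kinases (D6PKL3, a member, takes part in aperture formation) and 7 loci that the annotation used here leaves without a gene name. Those 7 were entered from general knowledge of aperture factors and their relatives, and their place on the list was not verified against any source used here, so the counts below describe the list as written. With INP1 left out, 5 of its 11 loci were measured, all of them unnamed, and D6PK, D6PKL1, D6PKL2 and D6PKL3 were not analysed here. Of the 5 measured, AT1G15320 fell, none rose and 4 did not pass limma's test. The share of named loci called lower was 0.888%. All 5 differences were negative, also after quantile normalisation or median centring, and their median was -0.12, while 50.6% of all named loci were negative with a median of -0.0019.

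AT1G15320 read 6.93 and 6.76 in the wild type arrays and 4.98 and 5.15 in the cdm1 arrays. The groups were far apart, with 1.62 on the log2 scale between the lower wild type and the higher cdm1 array. The difference was -1.78 (SE 0.11, limma adjusted p = 0.00427 over all probe sets), or 3.44-fold lower, from 6.85 ± 0.12 to 5.06 ± 0.11 (SD, n = 2 arrays each). It was the 15th lowest difference of the named loci. Unlike INP1, its cdm1 replicates were as close as its wild type replicates, and replicate 1 was the lower of them, where for INP1 it was the higher. Its adjusted p was 0.0757 without wild type replicate 1, 0.0809 without wild type replicate 2 and 0.111 with the replicate number as a block, settings in which limma called no probe set of the array (1619, 2133 and 3110 at an unadjusted p of 0.05).

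AT1G15330, the next annotated gene after AT1G15320 on the chromosome, also fell. It was singled out after its values were seen. Its log2 expression was 7.18 and 6.71 in wild type and 5.36 and 5.51 in cdm1, without overlap, a difference of -1.51 (SE 0.17, limma adjusted p = 0.0197). Its call was lost in the same 3 settings, with adjusted p-values of 0.106, 0.0826 and 0.190. Its level lay inside the band around INP1, so it is among the 19 probe sets counted there.

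The other 4 measured loci of the aperture list read much the same in both genotypes or varied more within them. AT1G03620 was at 6.92 and 7.49 in wild type and 6.37 and 6.99 in cdm1, and these groups overlapped. Its difference of -0.53 (SE 0.26, limma adjusted p = 0.397) was of the size of its replicate spread. Replicate 1 was the lower array in both genotypes, and with the replicate number as a block its limma adjusted p was 0.227. AT2G44770 was at 8.91 and 9.0 in wild type and 8.93 and 8.73 in cdm1, a difference of -0.12. AT3G03610 and AT3G60260 had differences of -0.076 (SE 0.09) and -0.033 (SE 0.11), with limma adjusted p-values of 0.766 and 0.930. AT3G60260 turned positive at 0.06 with cdm1 replicate 1 left out and at 0.02 with wild type replicate 1 left out.

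**Figure D3:**
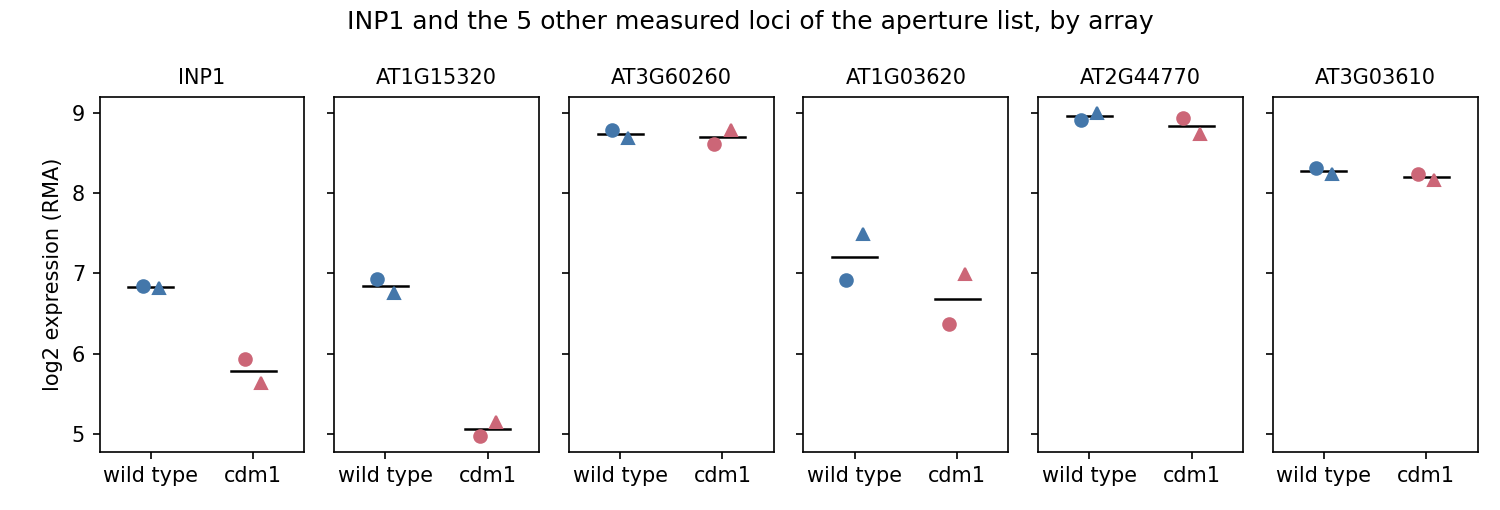
Log2 expression of INP1 and the 5 other measured loci of the aperture list in each array, with circles for replicate 1, triangles for replicate 2 and bars for the mean of 2 arrays. INP1 and AT1G15320 separate the genotypes, while the groups of AT3G60260, AT1G03620 and AT2G44770 overlap.

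INP1 carries a DOG1 domain, named after DOG1, a regulator of seed dormancy. Of 15 genes listed for this domain, which include the TGA transcription factors, only AT4G18650 was measured. It read 4.42 and 4.32 in wild type and 4.44 and 4.33 in cdm1, and did not pass the test (limma adjusted p = 0.962).

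The genes most alike to INP1 were sought over the 4 arrays, by the Euclidean distance between log2 profiles from which each gene's own mean had been taken. The choice rests on the same values as the difference, so the agreement of these genes with INP1 is no separate result. The closest of 13285 other named loci was AT3G16750, at a distance of 0.0944, with 8.19 and 8.29 in wild type and 7.36 and 7.11 in cdm1. It was followed by AT4G04480 (0.130), AT3G22260 (0.133), AT2G29800 (0.149), AT5G38820 (0.152), the MADS-box gene AGL89 (0.155), AT5G60090 (0.196) and AT3G09405 (0.215). The median distance over all these loci was 1.07. Like INP1, each of the 8 read lower in cdm1 replicate 2 than in cdm1 replicate 1.

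The likeness is loose in the sense that 4 arrays leave many genes close to INP1. By Pearson's r over the 4 arrays, 118 of the 13285 loci had an r above 0.99 with INP1, and none of the 8 genes above was among the first 8 by r. AGL89 had an r of 0.9944 and differences of about the same size, with wild type values of 4.50 and 4.66 and cdm1 values of 3.58 and 3.29. Whether such dim values lay above background was not tested.

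**Figure D4:**
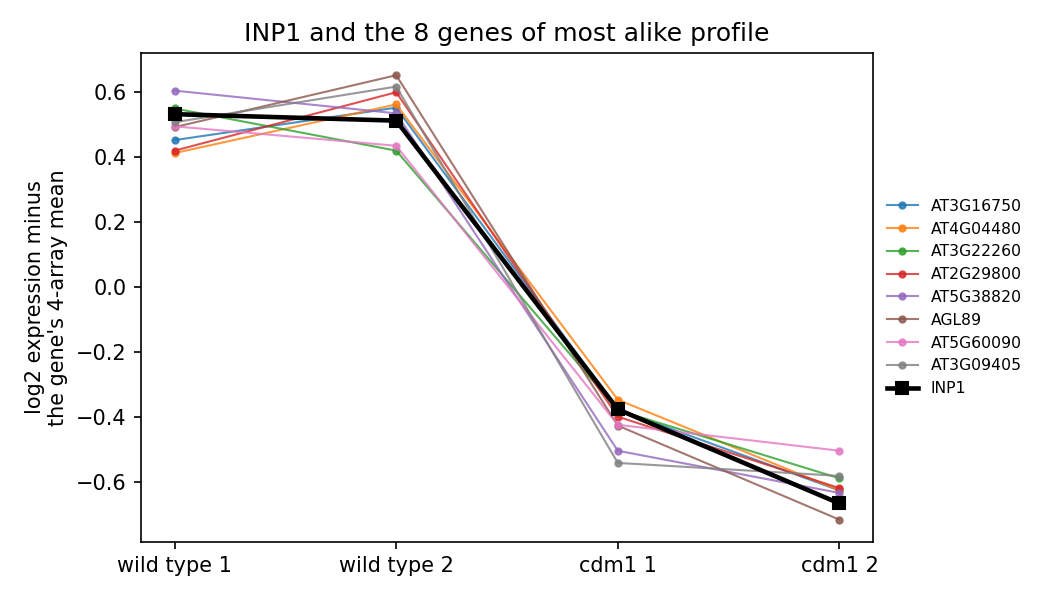
Log2 expression in each of the 4 arrays minus the gene's own 4-array mean, for INP1 (thick black line) and the 8 named loci at the smallest distance from it. All 9 profiles are high in both wild type arrays and low in both cdm1 arrays; the lines join arrays and have no order in time.

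None of the measured loci around INP1 in the order of genes on the chromosome passed the test. The 3 nearest measured before it were AT4G22580, AT4G22560 and AT4G22530, at differences of 0.19, 0.13 and 0.089 on the log2 scale. The 3 nearest after it were AT4G22610, AT4G22640 and AT4G22650, at 0.33, 0.19 and -0.033. AT4G22610, the gene directly next to INP1, read 4.08 and 4.07 in wild type and 4.55 and 4.26 in cdm1 (SE 0.12, limma adjusted p = 0.279). Thus 5 of these 6 had a difference above 0 with all 4 arrays and under quantile normalisation or median centring, where INP1 was at -1.05. Single arrays turned the sign of several: without cdm1 replicate 1, AT4G22560 was at -0.03 and AT4G22530 at -0.05, and without cdm1 replicate 2, AT4G22650 was at 0.08, with 0.04 when wild type replicate 1 was left out.

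Genes of the tetrad wall, male meiosis and tapetum were read from further lists. Over all 22746 probe sets, 3470 had an unadjusted limma p under 0.05, the background for the list counts at that level. Of 19 tetrad wall genes, 4 were measured, all with positive differences and none past the test (4 at an unadjusted p of 0.05). The one with the smallest p was SWEET8 (RPG1), a sugar transporter needed for the primexine on which the exine is laid down, at 10.31 and 10.02 in wild type and 10.57 and 10.87 in cdm1 (difference 0.56, SE 0.15, limma adjusted p = 0.172). Of 15 genes of meiotic cytokinesis and tetrad formation, 2 were measured and none passed (1 at an unadjusted p of 0.05). FU, the kinase that guides the expanding phragmoplast, was at -0.31 (SE 0.11, limma adjusted p = 0.285), and is also the 1 measured gene of 5 on the microspore list.

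Markers of male meiosis had mostly negative differences, as INP1 had, but smaller ones, and none passed the test. Of 32 male meiosis genes, 9 were measured, 7 of them negative, with a median difference of -0.22 and a lowest of -0.50, in AT1G12790 (SE 0.10, limma adjusted p = 0.0882). At an unadjusted p of 0.05, 3 passed, all lower. Without wild type replicate 1 the median was -0.14, with 5 of the 9 negative. Their summed level, on the linear scale, was 521 to 568 in the wild type arrays and 457 to 467 in the cdm1 arrays. Most tapetum genes had positive differences. Of the 34 listed, 12 were measured, 11 of them positive. The median difference of the 12 was 0.47, and 0.23 without cdm1 replicate 1. At an unadjusted p of 0.05, 8 passed, 7 higher and 1 lower. The summed level of the 12 was 10930 to 11069 in wild type and 13523 to 14486 in cdm1.

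In the tapetum list 2 genes were called higher and none was called lower, where 0.587% of named loci were called higher. SHT, a tapetal transferase that makes phenolic amides of the pollen wall, was at 8.78 and 8.05 in wild type and 10.01 and 10.28 in cdm1 (difference 1.73, SE 0.24, limma adjusted p = 0.0367). AT5G54010 was at 6.49 and 6.37 in wild type and 7.37 and 7.43 in cdm1 (difference 0.97, SE 0.10, limma adjusted p = 0.0136). Both calls were lost without either wild type array and with the block. For SWEET13 of the tetrad wall list the difference was 0.99, with 1.44 without cdm1 replicate 2 and 0.53 without cdm1 replicate 1. AT1G75880, AT1G75890 and AT1G75900 of the tapetum list were at 0.54, 0.57 and 0.41. They were at 0.71, 0.93 and 0.57 without cdm1 replicate 2 and at 0.36, 0.22 and 0.24 without cdm1 replicate 1. The tapetal beta-glucosidase gene ATA27 was at 0.94, with 0.72 and 1.16 in the same order. None of these genes passed the test with all 4 arrays. UND, the 1 measured tapetum gene with a negative difference, was at -0.64 (SE 0.21, limma adjusted p = 0.245). The part of these cell types in the INP1 difference was not tested.

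Markers of later pollen and of other tissue gave no call. Of 23 late pollen genes, 9 were measured, with a median difference of -0.081, a summed level of 284 to 307 in wild type and 267 to 286 in cdm1, and none past the test (1 at an unadjusted p of 0.05). PLIM2a, a pollen LIM protein that binds actin, had the smallest p, at a difference of -0.49 (SE 0.18, limma adjusted p = 0.271). Of 10 carpel and ovule genes, 2 were measured, with a summed level of 241 to 253 in wild type and 243 to 255 in cdm1, and INO, a factor of the outer ovule coat, was at 0.23 (SE 0.12, limma adjusted p = 0.423). LHCB4.2, an antenna protein of photosystem II and the 1 measured gene of 12 on the photosynthesis list, was at 0.085 (SE 0.10, limma adjusted p = 0.744). The lists were of unequal coverage, and RMA gives every probe set a level, so that no marker reads 0.

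**Figure D5:**
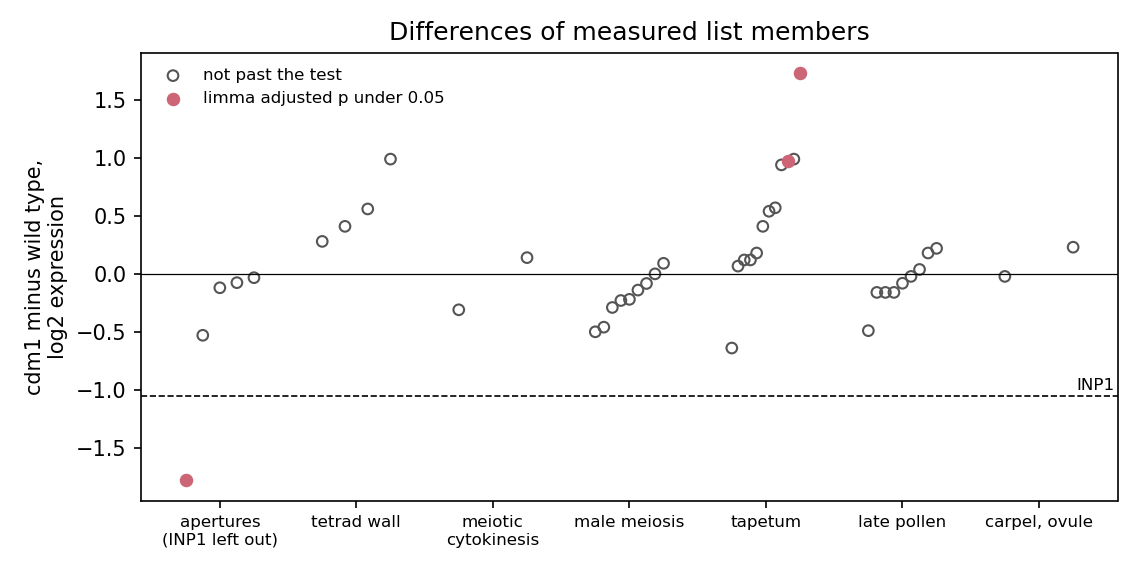
Difference cdm1 minus wild type (log2 expression) of each measured member of 7 lists, with filled points for members past the limma test over all probe sets and a dashed line at the INP1 difference of -1.05. AT1G15320, in the aperture list, is the only member below the line, and the filled points above 0 are SHT and AT5G54010.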

How the data were processed

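The 4 arrays were compared as 2 cdm1 against 2 wild type, by the genotype label. The deposited values are log2 expression values, made by the authors with RMA and the R package affy per the submitters' processing notes, with versions and genome build not stated there. RMA shares information between arrays, which narrows their spread and shrinks differences at low levels. Scanner files and detection calls were not used here, so signal above background was not tested. With 2 arrays a group, array number sets the precision.

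Of 22746 probe sets, the platform annotation gave 13513 a single gene symbol and 503 several, and did not list 8730. Of the single-gene probe sets, 13436 were matched to 13286 loci of TAIR10.1, used for names and gene order only. Where several probe sets name a locus, that of highest mean was used.

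limma 3.58.1 in R 4.3.3 was fitted to all probe sets with genotype as the only term (two-sided, empirical Bayes, Benjamini-Hochberg adjustment over all probe sets, threshold 0.05, 2 residual and 4 prior degrees of freedom). An SE is limma's moderated standard error and a difference is the log2 mean of cdm1 minus that of wild type. On simulated data of 22746 probe sets, this comparison recovered 88% of 100 changes of 2-fold and 100% of 100 changes of 4-fold, with 13 false calls among 201. The simulated variances were drawn from limma's own fitted prior, with independent normal noise. The simulation therefore checks the code under the model's assumptions and does not measure the power on the real arrays.

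The gene, the 10 lists and the naming rule were chosen with earlier results of these data known. Named were the measured loci of the aperture and DOG1 lists, the 3 measured loci on each side of INP1, the 3 probe sets next to it in each direction of the order of differences, the 8 most alike genes, and from each other list up to 3 called members or else the member with the smallest p. AT1G15330 was added after its values were seen. AMS, SWEET13, ATA27, UND, AT1G75880, AT1G75890 and AT1G75900 were also named outside this rule. Alternatives tried were quantile normalisation once more, centring on array medians, leaving out the dimmest 1 in 3 probe sets, a variance trend with and without robust estimation, the replicate number as a block, each array left out (the spread then comes from the other group), other level bands and Pearson's r. Deviations of same-numbered arrays from their group means correlated at -0.066.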

Additional observations from a re-analysis of the deposited data

How the results depend on the processing

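The INP1 difference was -1.04 under quantile normalisation and median centring, and -1.19 to -0.90 with 1 array left out. The dim filter only removes other probe sets, and the block is balanced over genotype. Neither can change the difference of -1.05, so they do not probe it. The rank of INP1 by size was 145 to 469 with 1 array left out, 212 under quantile normalisation and 213 under median centring. Among the probe sets kept by the dim filter it was 181. The share of similar-level probe sets at or below it was 1.53% to 2.96% with 1 array left out, 1.77% in a band of 0.5 and 1.27% in a band set on the wild type mean. None (0) of the 8 most alike genes stayed among the first 8 by Pearson's r, and all 8 did after quantile normalisation. limma's calls over all probe sets were 303 as reported, 465 with robust estimation, 0 with the replicate block (3110 at an unadjusted p of 0.05) and 0 to 1040 with 1 array left out, with 0 when either wild type array was (1619 and 2133 at an unadjusted p of 0.05). The aperture list without INP1 had 1 call, 0 with the block (limma, 2 at an unadjusted p of 0.05) and 0 to 1 with 1 array left out. The tetrad, meiosis and marker lists together had 2 calls, 0 with the block (limma, 13 at an unadjusted p of 0.05) and 0 to 6 with 1 array left out, with 6 without cdm1 replicate 2. The block leaves 1 residual degree of freedom, and whether the replicate numbers pair the arrays cannot be told from the labels. The causes were not tested.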
